A study of Mus musculus with 3 samples.

Results

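Basophil and mast cell RNA was examined in single splenocytes of 3 libraries, and 70 of 47453 kept barcodes were members. A barcode is the DNA tag of 1 droplet. RNA molecules were counted by unique molecular identifiers (UMIs), short random tags added before amplification, so that copies of a molecule count once. A barcode was kept with more than 200 and fewer than 3500 genes detected, under 15% of UMIs from mitochondrial genes, and a leading hashtag at 3 times the second or more. Hashtags are antibodies to common surface proteins that carry a readable DNA tag. A kept barcode was a member when the summed UMIs of Mcpt8, Gata2, Ms4a2, Cpa3, Cd200r3 and Fcer1a were 4 or more, at least 2 of these 6 genes were found, and Cd79a, a B cell gene, was at 0. The members were chosen by measured values of these genes, so the levels of the 6 genes and of Cd79a are given as a description.

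The study asked how isolevuglandins, reactive products of lipid oxidation, bear on immune cells in lupus and hypertension, and each library pooled 2 conditions of 3 mice each. The C57BL/6 control library combined sham-treated males with females. In the C57BL/6 Ang II library were cells from males that received angiotensin II by minipump for 2 weeks from 10 weeks of age, with placebo or with 2-HOBA (2-hydroxybenzylamine), which scavenges isolevuglandins. The B6.SLE123 library held cells of this lupus-prone strain after placebo or 2-HOBA for 6 weeks from 7 weeks of age, and the methods describe these mice as female. All mice were 12 to 14 weeks old at harvest, and all spleens had been depleted of T cells with CD3 microbeads. No label ties a hashtag to a condition, so placebo was not set against 2-HOBA or males against females, and strain, sex, treatment and library cannot be told apart in any comparison below. With 1 library per group there was no replicate check and no test. Levels are given as CPM, the UMIs of a gene summed over members, divided by all UMIs of these members and scaled to 1000000. Every interval is an exact 95% interval that covers counting error only.

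Basophils and mast cells carry the high-affinity receptor for IgE, FcεRI, on their surface. Antigen that crosslinks the bound IgE makes the cells release histamine and proteases from granules, make leukotrienes, and secrete cytokines and chemokines. Both lineages depend on the transcription factor GATA2. Mast cells mature in tissues, depend on the receptor tyrosine kinase Kit and hold chymases and tryptases, whereas basophils circulate in blood, are found in the spleen and hold a largely different set of proteases. Basophils are an early source of IL-4 and have been implicated in antibody production in lupus. Of the 6 choosing genes, Fcer1a and Ms4a2 encode the α and β chains of FcεRI, Cpa3 encodes carboxypeptidase A3 of the granule, Gata2 encodes GATA2, Mcpt8 encodes a basophil protease, and Cd200r3 encodes an activating receptor of the CD200 receptor family.

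GATA factors bind short sequences around the letters GATA, and the stretch just before the start site of each choosing gene was searched for them. The motif searched was the letters GATA with A or T just before them and A or G just after them, on both strands, and overlapping matches were counted. Promoters were taken from RefSeq on GRCm38.p6, from 250 bases before to 50 bases after the start, and all 6 genes matched, Gata2 with 2 promoters. Matches lay in 4 of these 7 promoters (57.1%), those of Fcer1a, Ms4a2, Cpa3 and Cd200r3, against 29.8% of 32817 promoters in all. None was found in the window of Mcpt8 or in those of Gata2. The 250 bases before the start of the 4 genes are printed 5′ to 3′ on the strand of the gene, together with those of Prss34, the basophil protease gene that differed most between the libraries. Capitals mark the matches, which start at -92 in Fcer1a, at -224, -37 and -11 in Ms4a2, at -46 in Cpa3, at -115, -39 and -33 in Cd200r3, and at -31 in Prss34, counted from the start site.
Fcer1a, chr1:173227230-173227479, minus strand: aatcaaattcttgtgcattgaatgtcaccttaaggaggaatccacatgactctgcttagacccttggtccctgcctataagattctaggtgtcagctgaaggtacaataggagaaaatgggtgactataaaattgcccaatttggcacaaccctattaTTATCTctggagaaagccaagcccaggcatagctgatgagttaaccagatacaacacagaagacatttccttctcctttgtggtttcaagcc
Ms4a2, chr19:11623720-11623969, minus strand: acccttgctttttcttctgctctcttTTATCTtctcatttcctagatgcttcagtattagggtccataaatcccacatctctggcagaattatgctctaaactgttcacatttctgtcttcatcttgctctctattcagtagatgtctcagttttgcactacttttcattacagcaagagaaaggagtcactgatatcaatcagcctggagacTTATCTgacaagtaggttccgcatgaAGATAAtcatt
Cpa3, chr3:20242182-20242431, minus strand: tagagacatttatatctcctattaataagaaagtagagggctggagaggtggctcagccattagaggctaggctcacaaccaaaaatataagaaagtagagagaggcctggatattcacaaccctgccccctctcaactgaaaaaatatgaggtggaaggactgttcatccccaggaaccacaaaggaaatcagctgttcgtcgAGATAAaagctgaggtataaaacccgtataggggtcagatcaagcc
Cd200r3, chr16:44943428-44943677, plus strand: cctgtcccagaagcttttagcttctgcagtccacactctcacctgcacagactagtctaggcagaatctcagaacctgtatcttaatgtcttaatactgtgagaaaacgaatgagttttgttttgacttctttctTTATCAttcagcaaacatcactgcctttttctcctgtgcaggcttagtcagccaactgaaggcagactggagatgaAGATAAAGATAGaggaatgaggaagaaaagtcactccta
Prss34, chr17:25298144-25298393, plus strand: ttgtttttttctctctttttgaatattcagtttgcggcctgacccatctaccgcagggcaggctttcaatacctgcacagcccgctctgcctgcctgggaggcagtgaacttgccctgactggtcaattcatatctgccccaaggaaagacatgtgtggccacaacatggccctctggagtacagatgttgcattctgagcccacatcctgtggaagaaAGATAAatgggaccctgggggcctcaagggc

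The control library gave 26 members of 15957 kept barcodes, the Ang II library 21 of 13982, and the B6.SLE123 library 23 of 17514. These were 0.163% (0.106% to 0.239%), 0.150% (0.0930% to 0.229%) and 0.131% (0.0833% to 0.197%) of kept barcodes. The log2 ratio of the share relative to the control library was -0.31 (-1.19 to 0.56) in B6.SLE123 and -0.12 (-1.02 to 0.77) in Ang II, so no difference in share was detectable at this number of cells. B cells made up most of each library, and over kept barcodes without Cd79a the shares were 1.22%, 1.03% and 0.771%. No barcode of a member was shared between libraries, while 320 to 367 kept barcodes were shared by each pair of libraries. The median depth of members was 1821 UMIs in the control, 3298 in the Ang II and 1821 in the B6.SLE123 library, against 1792, 2771 and 1956 for all kept barcodes. The members of the Ang II library were thus the deepest, which bears on every count of members with a UMI.

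Of the 70 members, 37 had 10 or more UMIs of the 6 genes. Exactly 4 UMIs of the 6 genes were found in 3 control, 0 Ang II and 4 B6.SLE123 members. Just outside, 3 control barcodes had 3 UMIs of at least 2 of the genes, and 2 control and 3 B6.SLE123 barcodes had 4 or more UMIs of a single gene. A further 9 barcodes in control, 6 in Ang II and 7 in B6.SLE123 met the rule except for Cd79a. They had a median of 2557, 5205 and 7432 UMIs, deeper than the members. In contrast, 7027 of the kept barcodes without Cd79a had none of the 6 genes and 45 had 1 or 2 UMIs of them.

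Fcer1a (chromosome 1, 173221284 to 173227214) was the most even of the choosing genes. It stood at 1025 CPM in control members (772 to 1334), 1023 CPM in Ang II members (808 to 1279) and 1109 CPM in B6.SLE123 members (865 to 1402), and was found in 21 of 26, 17 of 21 and 19 of 23 of them. In a B cell gate (2 or more Cd79a UMIs) it was found in 0.0301%, 0.0349% and 0.0217% of barcodes, at median depths of 1826, 2818 and 2067 UMIs. Members held 76.4%, 72.6% and 72.9% of all Fcer1a UMIs of kept barcodes.
Ms4a2 (chromosome 19, 11615523 to 11623719) stood at 596, 678 and 761 CPM and Cd200r3 (chromosome 16, 44943678 to 44981380) at 801, 811 and 602 CPM in control, Ang II and B6.SLE123 members. Gata2 (chromosome 6, 88193891 to 88207032) stood at 596, 757 and 444 CPM. Cpa3 (chromosome 3, 20215620 to 20242181) stood at 894, 757 and 1363 CPM, and 1 B6.SLE123 member held 27 of that library's 86 UMIs.
Mcpt8 (chromosome 14, 56082166 to 56085273) was the exception among the 6, with 29 UMIs in control, 28 in Ang II and 186 in B6.SLE123 members. These were 540 (362 to 776), 372 (247 to 538) and 2948 (2539 to 3403) CPM. It was found in 10 of 26, 12 of 21 and 18 of 23 members, and with cells thinned to 1000 UMIs in 30.8%, 38.1% and 63.6% of them. The summed UMIs of all 6 genes ran from 4 to 24 in control members (median 7.5), from 5 to 36 in Ang II members (median 15) and from 4 to 109 in B6.SLE123 members (median 9).

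**Figure D1:**
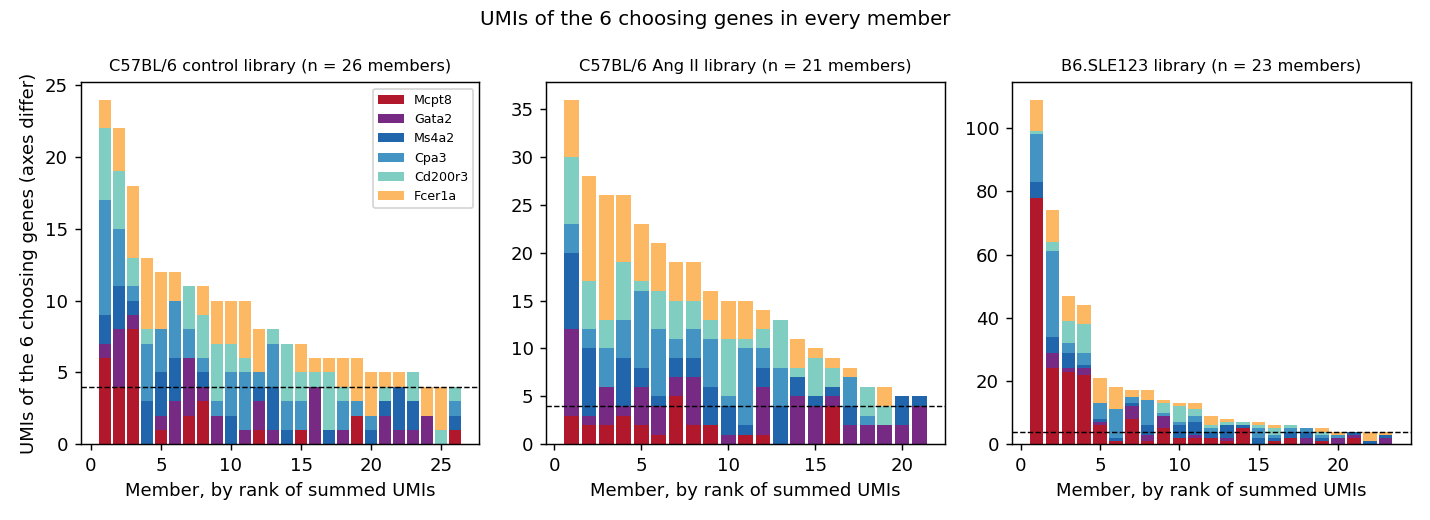
UMIs of the 6 choosing genes in each of the 70 members, stacked by gene (vertical axis, UMIs, with a different scale in each panel) and ordered by their sum (horizontal axis). The dashed line marks the threshold of 4 UMIs. The 4 tallest bars of the B6.SLE123 library are mostly Mcpt8 or Cpa3, with 22 to 78 Mcpt8 UMIs each, and no control or Ang II member held over 8.

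Genes outside the rule that members shared included several known from basophils. By the lowest ratio of members to other kept barcodes over the 3 libraries, among genes with 100 or more UMIs in members, the 15 leading genes were the 6 choosing genes followed by Cyp11a1, Prss34, Csf1, Ccl3, Csf2rb2, Ccl4, Cd63, Ccl6 and Ccl9. Cyp11a1, which encodes the enzyme that turns cholesterol into pregnenolone, had log2 ratios to other kept barcodes of 9.68, 10.45 and 8.50 over control, Ang II and B6.SLE123 barcodes. It was found in 22 of 26, 19 of 21 and 18 of 23 members. Cd63, a granule membrane protein that reaches the surface on degranulation, was found in every member, with log2 ratios of 6.80, 5.83 and 5.94. Ifitm1, an interferon-induced membrane protein gene, was found in all control and Ang II members and in 22 of 23 B6.SLE123 members, at 8197, 5940 and 6387 CPM. In the B cell gate Ifitm1 stood at 8.70 CPM in the control and 6.42 CPM in the Ang II library, but at 1329 CPM in the B6.SLE123 library. Not every basophil identity gene was shared, and of the 25 listed outside the rule 1 had no UMI in any member. The integrin gene Itga2 was found in 30.8% of control and 38.1% of Ang II members, but in 4.35% of B6.SLE123 members. With cells thinned as for Mcpt8, these shares were 15.4%, 9.52% and 0%.

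**Figure D2:**
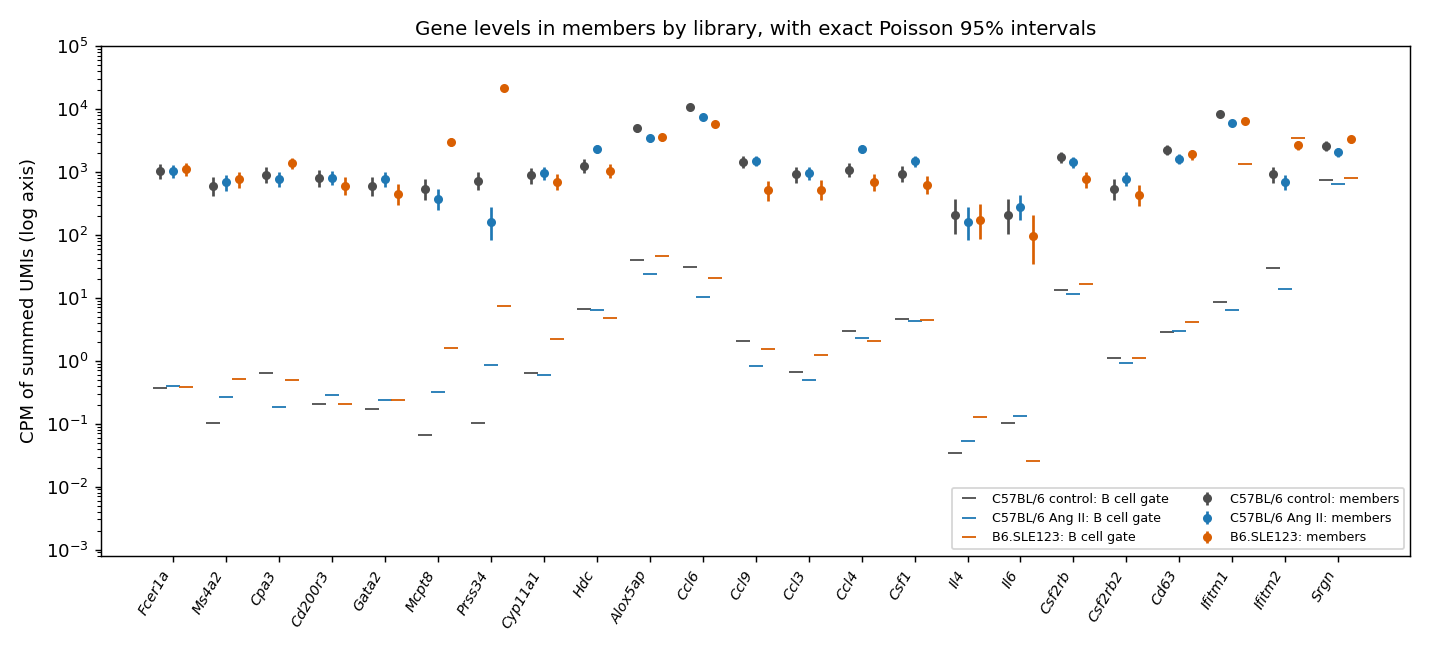
Level of 23 genes in members (points, CPM on a log axis, with exact Poisson 95% intervals) and in the B cell gate of the same library (short bars), by library. Prss34 and Mcpt8 sit higher in B6.SLE123 members, of which 4 hold 99.3% and 79.0% of these UMIs, and the B cell gate of that library reaches 3475 CPM of Ifitm2, above the 2631 CPM of its members.

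The label names mast cells as well, but most of the genes that define them were not found, and Kit was found in few members. Of 16 mast cell genes, 12 had no UMI in any of the 70 members, among them Cma1, Mcpt4 and Tpsb2, which encode the chymases and a tryptase of connective tissue mast cells. A count of 0 allows up to 55.9 CPM of Cma1 in control, 39.9 CPM in Ang II and 47.5 CPM in B6.SLE123 members. The whole list had 11, 13 and 8 UMIs, of which 7, 9 and 1 were Il1rl1, the IL-33 receptor gene that basophils also express. Kit, the growth factor receptor of mast cells and progenitors, had 4 UMIs in 1 control, 3 in 1 Ang II and 4 in 3 B6.SLE123 members. The cells are therefore called members here. Genes of other cell types were scarce in most of them. The 8 T cell genes had no UMI in any library, and in the NK cell list 6 of 8 genes had none. The B cell list had 13 UMIs in control, 21 in Ang II and 211 in B6.SLE123 members, the neutrophil list 41, 52 and 12, mostly of Cxcr2, and the monocyte and macrophage list 30, 18 and 30. In the B6.SLE123 library 1 member held 185 of the 211 UMIs of the B cell list, of which 182 were Cd74.

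The receptor complex was found in all libraries. Fcer1g, which encodes the γ chain that FcεRI shares with other Fc receptors, was found in every member at 3502 (control), 2698 (Ang II) and 2948 (B6.SLE123) CPM. NK, neutrophil and monocyte gates of the 3 libraries held 2432 to 4626 CPM of Fcer1g, so this gene did not set members apart. The signalling genes downstream were shallow. Syk, the kinase that the receptor recruits, had 10, 10 and 9 UMIs, Lyn 6, 21 and 7, and Lat2, an adaptor, 17, 42 and 33 in control, Ang II and B6.SLE123 members. Among inhibitory and paired receptors, Lilr4b stood at 1062, 1023 and 618 CPM and Lilrb4a at 615, 571 and 380 CPM. The division of reads between these 2 similar genes is uncertain. The IgG receptor Fcgr3 stood at 391, 399 and 380 CPM, and Fcgr2b, the inhibitory one, had 8, 9 and 0 UMIs.

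Granule proteases differed most between libraries and between members. Prss34 (chromosome 17, 25298394 to 25300165), a basophil tryptase gene, had 39 UMIs in control members, 12 in Ang II members and 1367 in B6.SLE123 members. These were 727 (517 to 993), 159 (82.4 to 279) and 21664 (20530 to 22843) CPM. The UMIs came from few members, 3 of 26, 3 of 21 and 5 of 23. In the control library they held 32, 5 and 2 UMIs, in the Ang II library 8, 2 and 2, and in the B6.SLE123 library 565, 286, 254, 252 and 10. The other 59 members had none, so 4 B6.SLE123 members carried 99.3% of the Prss34 of that library. The same 4 held 79.0% of its Mcpt8, and its other 19 members had 39 Mcpt8 UMIs, which was 892 CPM. Of the 11 members with Prss34, 6 had no UMI of the chemokine gene Ccl6, against 7 of the 59 without it. Members with Prss34 were also deeper, with a median of 3244 against 2063 UMIs. Outside members, Prss34 was found in 0.0226%, 0.0960% and 0.0217% of the B cell gate, and members held 92.9%, 22.2% and 57.3% of its UMIs in control, Ang II and B6.SLE123 kept barcodes. Srgn, the gene of the proteoglycan that packs granule proteases, was even by comparison at 2571, 2047 and 3296 CPM, and was found in 25, 21 and 22 members.

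**Figure D3:**
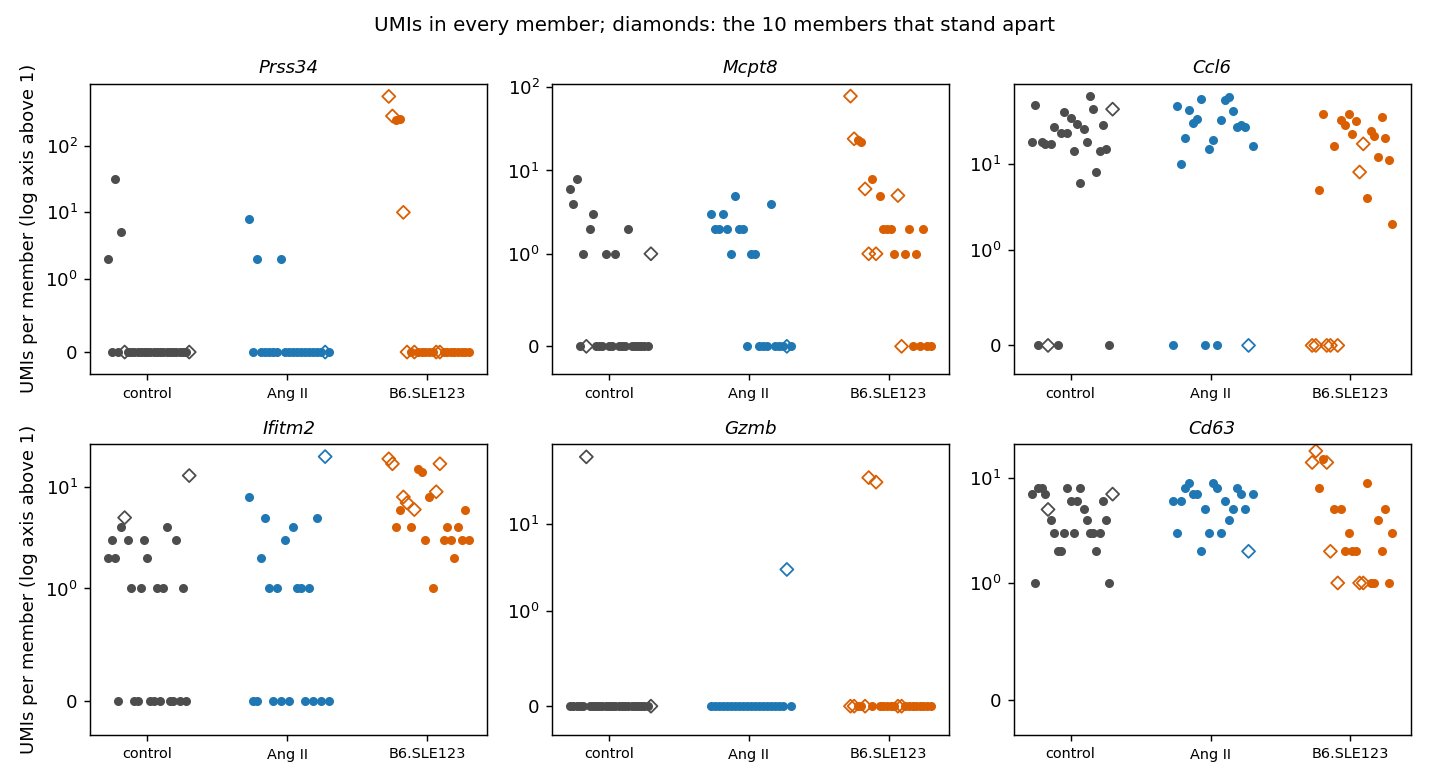
UMIs of 6 genes in each member (vertical axis, linear up to 1 and logarithmic above) by library. Diamonds are the 10 members with 10 or more UMIs of another cell type's list, of the progenitor, cell cycle or mast cell list, or of Gzmb. Prss34 lies at 0 in 59 members, Gzmb is at 31 or more in 3 members, and Cd63 is above 0 in all 70.

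Histamine and lipid mediator genes were found in most members. Hdc, which makes histamine from histidine, stood at 1248 (967 to 1585) CPM in control, 2286 (1957 to 2654) CPM in Ang II and 1046 (809 to 1331) CPM in B6.SLE123 members, and was found in 20, 17 and 21 of them. Alox5ap, the protein that presents arachidonic acid for leukotriene synthesis, stood at 4937, 3415 and 3534 CPM. Ltc4s and Ptgs1 had no UMI in any member.

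Chemokines outweighed cytokines. Ccl6 (chromosome 11, 83587882 to 83593087) was the highest of the list at 10600 (9747 to 11508) CPM in control, 7415 (6813 to 8057) CPM in Ang II and 5769 (5191 to 6393) CPM in B6.SLE123 members. It had no UMI in 4, 4 and 5 members and a median of 18, 27 and 16 UMIs over all members. The CC chemokine Ccl9 had 77, 113 and 32 UMIs, Ccl3 49, 72 and 33, and Ccl4 58, 172 and 43. Csf1, the growth factor of macrophages, stood at 931, 1475 and 618 CPM. Il4 (chromosome 11, 53602982 to 53618669) had 11, 12 and 11 UMIs in 10, 8 and 7 members. Members nonetheless held 68.8%, 66.7% and 55.0% of all Il4 UMIs of kept barcodes, and the share of the B cell gate with an Il4 UMI was 0.0217% or less. Il6 had 11, 21 and 6 UMIs in 9, 12 and 5 members, which was 205 (102 to 367), 279 (173 to 427) and 95.1 (34.9 to 207) CPM. With cells thinned to 1000 UMIs, Il6 was found in 19.2%, 19.0% and 13.6% of members. Il13 had 1 UMI in all, and Il5, Il9, Csf2 and Areg had none.

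Among cytokine receptors, Csf2rb, the shared β chain of the IL-3, IL-5 and GM-CSF receptors, stood at 1714, 1422 and 761 CPM, and its near-identical mouse copy Csf2rb2 at 540, 771 and 428 CPM, so that reads may be divided between them. The IL-3 receptor α chain gene Il3ra had 9, 5 and 8 UMIs, and Il5ra and Ccr3, which mark eosinophils among others, had none. Il18rap and Il18r1 of the IL-18 receptor had 16, 37 and 15 and 14, 23 and 12 UMIs in control, Ang II and B6.SLE123 members. Among transcription factors, Gata1 had 3, 1 and 2 UMIs against 32, 57 and 28 of Gata2. Cebpa, which works with GATA2 in the basophil lineage, had 21, 23 and 10 UMIs, Runx1 24, 26 and 16, and Spi1 24, 31 and 21. Mitf, a mast cell factor, had 0, 0 and 1 UMIs, and Irf8 had none.

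Standing apart from the rest were 10 members with 10 or more UMIs of Gzmb or of 1 of 12 gene lists. These were lists of other cell types and of progenitor, cell cycle and mast cell genes. Both these members and the genes named here were picked out after their values were seen. The 10 were 2 control, 1 Ang II and 7 B6.SLE123 members, and 6 of these 7 carried hashtag C0303. In 1 control member Gzmb, which encodes granzyme B, had 61 UMIs with 4 of Kit, 14 of Itga4 and 12 of Scin, and none of Ccl6. In the B6.SLE123 library 2 members had 35 and 31 Gzmb UMIs, 1 and 2 of Kit, 9 and 8 of Cpa3, and likewise none of Ccl6. No other member held more than 3 Gzmb UMIs, and in all 3 of these Cma1, Mcpt4 and Tpsb2 were at 0.
The 2 B6.SLE123 members with most Prss34 also had UMIs of genes known from immature cells. The one with 565 Prss34 UMIs had 48 UMIs of the cell cycle list, 12 of them Pclaf, and the one with 286 had 44 UMIs of Ctsg and 17 of Mpo, which encode granule enzymes of myeloid progenitors. Another B6.SLE123 member had 602 UMIs of Prg2, the eosinophil major basic protein gene, with 17 of Prg3, 11 of Ear2, 26 of Mpo and 12 of Elane, beside 8 of Fcer1a and 10 of Prss34. Prg2 was at 0 in the other 69 members.
The deepest member, with 9389 UMIs in the Ang II library, had 8 UMIs of Myb, 5 of Car1 and 3 of Kit, and its 5 UMIs of choosing genes were of Gata2 and Ms4a2. Of the remaining 3, a B6.SLE123 member had 182 UMIs of Cd74, 55 of H2-Aa and 48 of H2-Eb1, a second had 12 of Fcgr4, 6 of C1qb and 5 of C1qa, and a control member had 10 of Ly6c2. Whether these are droplets with 2 cells was not tested. Without the 10 members, 24, 20 and 16 were left, which were 0.150%, 0.143% and 0.0914% of kept barcodes in control, Ang II and B6.SLE123. Kit was at 0 in all 60 of them while Ifitm1 and Cd63 were found in all 60. Kit counted in the mast cell and progenitor lists used to set members apart, so its absence from the rest is given as a description.

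Members were spread unevenly over the hashtags of the B6.SLE123 library. Within the control and within the Ang II library, the exact intervals of the hashtags all overlapped. From C0301 to C0306 there were 3, 4, 5, 0, 9 and 5 control members, 5, 2, 5, 3, 4 and 2 Ang II members, and 0, 11, 9, 0, 1 and 2 B6.SLE123 members. The 0 of 2352 for C0304 in the control library allows a share of up to 0.128% by 3 counts of the total, and 0.157% by the exact interval. In the B6.SLE123 library the share was 0.391% (0.195% to 0.698%) for C0302 and 0.272% (0.125% to 0.516%) for C0303. It was 0 of 2952 for C0301 and 0 of 2852 for C0304, which by 3 counts of the total allows shares of up to 0.102% and 0.105%, and by the exact interval 0.125% and 0.129%. The intervals of C0302 and of C0301 or C0304 did not overlap. The sources used here do not say what each hashtag stood for. The 4 members with most Prss34 carried C0302 (1) and C0303 (3).

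**Figure D4:**
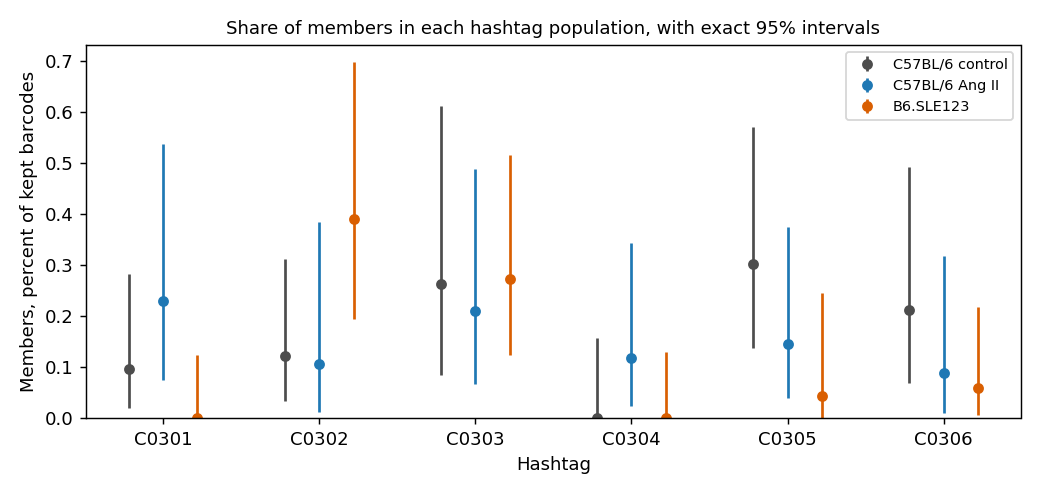
Members as a percent of the kept barcodes of each hashtag population (vertical axis) by hashtag (horizontal axis) and library, with exact 95% intervals. The B6.SLE123 points are at 0.391% and 0.272% for C0302 and C0303 and at or below 0.0603% for the other 4, while the Ang II points lie between 0.0882% and 0.231%.

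B6.SLE123 members were compared with control members over 904 genes with 20 or more UMIs in both together. Of these, 80 (8.85%) were 2-fold or more higher and 92 (10.2%) 2-fold or more lower, and the median log2 ratio of all 904 was -0.096. The highest genes with 30 or more UMIs were Prg2, Prss34, Cd74, H2-Eb1, Ctsg, Ftl1-ps1, Mpo and H2-Aa. Prss34 had a log2 ratio of 4.90 (4.44 to 5.40), which was 4.46 (3.99 to 4.97) without the 10 members that stood apart, where 2 of 16 B6.SLE123 members had it, and 6.61 without the top member of each library. Without the 4 B6.SLE123 members with most Prss34 it turned to -1.67 (-2.84 to -0.64), from 10 UMIs in 19 members against 39 in 26. These 4 were picked by Prss34 itself and all control members were kept, so a fall was fixed in advance. The value describes how few members held the UMIs and does not estimate a difference between libraries. In the B cell gate 3 barcodes of each of these 2 libraries had a Prss34 UMI, and 1 B6.SLE123 barcode held 281 of the 283 UMIs there.
Prg2 had 602 against 0 UMIs, at least 171-fold higher against a floor of 3 counts over the control members, and Cd74 4.56 (3.49 to 5.89), H2-Eb1 4.35 (2.42 to 7.44) and H2-Aa 3.60 (2.16 to 5.52), but 1 member held 100%, 93.8%, 100% and 96.5% of these UMIs. Without the top member of each library, Cd74 had 1.03 and H2-Aa -0.82. Ctsg had 4.20 (2.59 to 6.52) from 65 against 3 UMIs, and Mpo had 47 against 0 UMIs, at least 13.3-fold higher against the same floor. Of these, 3 members that stood apart held 61 of the 65 and 46 of the 47, which left 4 and 1 UMIs in the remaining 16 members. Ctsg and Mpo counted in the progenitor list used to set members apart, so this low remainder is given as a description. Ctsg also had ratios of 4.38 in B cell, 2.28 in neutrophil and 3.83 in monocyte gates. Mpo had 5.42, 4.30 and 3.35 there, and 0.71 in the NK gate. In the B6.SLE123 B cell gate, the top barcode for Ctsg held 61 of 108 UMIs, and the top one for Mpo 97 of 166. Ftl1-ps1, a pseudogene that can share reads with ferritin light chain genes, had 3.96 (2.34 to 6.28) and was found in 20 of 23 against 3 of 26 members. It stood as far apart in every gate, at 4.48 in B cell, 3.81 in neutrophil, 4.60 in monocyte and 3.97 in NK cell gates.

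Among the lowest genes were Gstm1, Herc1, Cxcr2, Os9, Tmem71, Cd7 and Ier2. Gstm1 (chromosome 3, 108012255 to 108017973), a glutathione S-transferase gene of a family with similar copies, had 7 UMIs in 4 B6.SLE123 members against 51 in 18 control members. Its log2 ratio was -3.10 (-4.48 to -1.95), and -3.91 (-6.99 to -1.98) without the members that stood apart. In the gates Gstm1 had ratios from 0.08 to 1.34, higher and not lower. Cd7, which encodes a surface protein of lymphoid and some myeloid cells, was found in 14 of 23 against 24 of 26 members, at 586 against 1937 CPM. Its ratio was -1.72 (-2.31 to -1.17), and -1.11 (-1.77 to -0.50) without the members that stood apart. In the gates Cd7 had -1.47 in neutrophils, and 0.22, 0.40 and 0.19 in B cells, monocytes and NK cells. Cxcr2, the receptor of CXC chemokines that draw neutrophils, had -1.98 (-3.10 to -0.98), and -1.60 (-3.01 to -0.41) without the members that stood apart. It was lower in gates as well, at -0.52 in B cell, -0.92 in neutrophil and -0.55 in NK cell gates. Ier2, an immediate early gene, had -1.70 (-2.59 to -0.87) and Herc1, Os9 and Tmem71 had ratios from -2.07 to -1.76. Without the members that stood apart, Ier2 had -1.31 (-2.47 to -0.29) and Os9 -1.44 (-3.19 to -0.01), while the intervals of Herc1 at -1.29 (-2.87 to 0.03) and Tmem71 at -1.13 (-2.58 to 0.11) included 0.

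By gene list, several medians moved when the members that stood apart were left out. Of 6 granule genes outside the rule, 3 were 2-fold or more higher (against 8.85% of all genes) and none lower, with a median of 1.20. These 3 were Prss34 and Ctsg, which few members held, and Serpinb1a. The choosing gene Mcpt8, given as a description, had a ratio of 2.45 (1.88 to 3.07). It was 0.72 (-0.01 to 1.47) without the 4 B6.SLE123 members with most Prss34, with all control members kept. Serpinb1a, an inhibitor of neutrophil serine proteases, had 1.99 (0.93 to 3.21), and 2.72 (1.57 to 4.05) without the members that stood apart. Of 7 cytokine and chemokine genes, 1 was 2-fold lower (against 10.2% of all genes), Ccl9 at -1.50 (-2.14 to -0.89), and the median was -0.67. Without the members that stood apart this median was 0.15, and that of Ccl6 moved from -0.88 (-1.07 to -0.69) to 0.13 (-0.07 to 0.33). Likewise, the median of 19 identity genes moved from -0.59 to 0.24, and Csf2rb from -1.17 (-1.71 to -0.65) to -0.25 (-0.84 to 0.31). The median of all genes was then -0.0055. The remaining choosing genes, Fcer1a, Ms4a2, Cpa3, Cd200r3 and Gata2, had ratios from -0.43 to 0.61. Among 8 cytokine receptors 2 were 2-fold lower, among 8 transcription factors 2, and among 13 immediate early genes 3, against 10.2% of all genes, with medians of -0.64, -0.43 and -0.30. Without the members that stood apart, the medians were -0.03 with 0 of 6 receptors lower, -0.59 with 1 of 5 transcription factors lower, and 0.15 with 3 of 11 immediate early genes higher and 1 lower. Of all 582 genes compared then, 33 were 2-fold or more higher and 39 lower.

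The interferon-induced Ifitm genes were set beside the B cell gate. Ifitm2 (chromosome 7, 140954837 to 140955987) had 49 UMIs in 16 of 26 control, 52 in 12 of 21 Ang II and 166 in all 23 B6.SLE123 members. Its ratio for B6.SLE123 was 1.53 (1.06 to 2.02) and Ifitm3 had 1.17 (0.25 to 2.17), whereas Ifitm1 had -0.36 (-0.56 to -0.16). Without the members that stood apart, Ifitm2 had 2.19 (1.58 to 2.83), Ifitm3 had 1.14 (-0.16 to 2.49), and Ifitm1 turned to 0.40 (0.18 to 0.62). In the B cell gate the 3 ratios were 6.89, 1.10 and 7.26. The B6.SLE123 B cell gate held Ifitm2 in 96.3% of barcodes at 3475 CPM. Whether Ifitm2 UMIs in members of that library came in part from RNA of other cells was not tested. The B cell list stood at 37677.5 CPM in that gate and at 3344 CPM in members, where 1 member held 185 of 211 UMIs. The 3 genes are similar in sequence, so reads may be divided between them. Of the interferon response list, no gene other than Ifitm3 had 20 UMIs in both libraries together.

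Ang II members were compared with control members over 1071 genes. Of these, 73 (6.82%) were 2-fold or more higher and 39 (3.64%) 2-fold or more lower, with a median log2 ratio of 0.0065. The highest were Hspa1b, Hist1h1c, Serpinb1a, Vim, Btg2, Tpm3, Cd84 and Hist1h2ac. Hspa1b, a heat shock gene with a near-identical neighbour, had 44 UMIs in 5 Ang II members against 0 in control members and was at least 10.5-fold higher against a floor of 3 counts, and 56.8% of its UMIs were in 1 member. Its ratio was 1.69 in the B cell gate and 1.56 in the NK gate. Hist1h1c (chromosome 13, 23738808 to 23740367), a linker histone gene, had 39 UMIs in 13 of 21 against 6 in 6 of 26 members, a log2 ratio of 2.21 (0.96 to 3.74), and between 0.14 and 0.30 in the 4 gates. Serpinb1a had 1.51 (0.43 to 2.75) and Vim, the intermediate filament of blood cells, 1.45 (0.69 to 2.29). Cd84, a receptor of the SLAM family, had 1.25 (0.14 to 2.51) and was found in 14 of 21 against 8 of 26 members.
The lowest were Gzmb, Prss34, Igf1r, H2-K1, Mrpl30, Cox17, Morrbid and S100a6. Gzmb and S100a6 rested on 1 control member with 100% and 80% of the UMIs, and without the top member of each library S100a6 had 0.32. Prss34 had -2.19 (-3.26 to -1.22), from 3 members on each side, and without control hashtag C0305 its ratio was 0.85. In the B cell gate 11 Ang II barcodes held 33 Prss34 UMIs, 23 of them in 1, against 3 in control. Igf1r, the receptor of insulin-like growth factor, had 11 UMIs in 9 of 21 against 35 in 17 of 26 members, a ratio of -2.16 (-3.28 to -1.15). H2-K1, an MHC class I gene of a family with similar copies, had -1.68 (-2.34 to -1.06). It was lower in the gates too, at -0.35 in B cell, -1.34 in neutrophil, -0.85 in monocyte and -0.12 in NK cell gates. The same control members served in both comparisons. In B6.SLE123 members, without those that stood apart, Igf1r was lower as well, at -1.78 (-3.32 to -0.51). Vim was higher there, at 1.92 (0.93 to 2.99), while H2-K1 had 0.11 (-0.50 to 0.70).

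Immediate early genes, which cells switch on within minutes of a stimulus or of handling, had a median ratio above that of all genes in Ang II members. Of 14 immediate early genes tested, 2 were 2-fold or more higher, Fosb at 1.10 (-0.03 to 2.37) and Btg2 at 1.41 (0.16 to 2.85), against 6.82% of all genes, and none lower, with a median of 0.50. Without the members that stood apart 4 of 13 were higher, with a median of 0.69 against 0.043 for all genes. Of all 946 genes compared then, 72 were 2-fold or more higher and 33 lower. Summed over all members, the immediate early list stood at 10219 CPM in Ang II against 7414 CPM in control. The list was also higher in the Ang II B cell (3136 against 2786 CPM), monocyte (5175 against 4673 CPM) and NK (4894 against 3774 CPM) gates. In the neutrophil gate it was lower, at 6124 against 8025 CPM. Over all members, Jun had 0.64 (0.17 to 1.13), Junb 0.56 (0.10 to 1.03) and Cd69, an early activation marker, 0.91 (0.25 to 1.60). Ccl4 had 1.08 (0.64 to 1.54), with 172 UMIs in 17 of 21 against 58 in 19 of 26 members and a highest member of 41 against 7. Csf1 had 0.66 (0.17 to 1.17) and Hdc 0.87 (0.46 to 1.30), while Ccl6 had -0.52 (-0.69 to -0.34), Alox5ap -0.53 (-0.78 to -0.28) and Ifitm1 -0.46 (-0.66 to -0.27). In the B cell gate Ccl6 and Alox5ap were lower too, at -1.56 and -0.72, and Ccl4 and Hdc had -0.35 and -0.09. The medians of 20 identity, 8 transcription factor and 8 cytokine receptor genes were 0.07, -0.36 and -0.25, with 1, 0 and 0 genes 2-fold or more higher and 1, 0 and 0 lower. Without the members that stood apart, the medians were 0.21 for 20 identity, 0.05 for 7 transcription factor and -0.11 for 8 cytokine receptor genes. Over all members, the 6 choosing genes had ratios between -0.54 and 0.35.

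**Figure D5:**
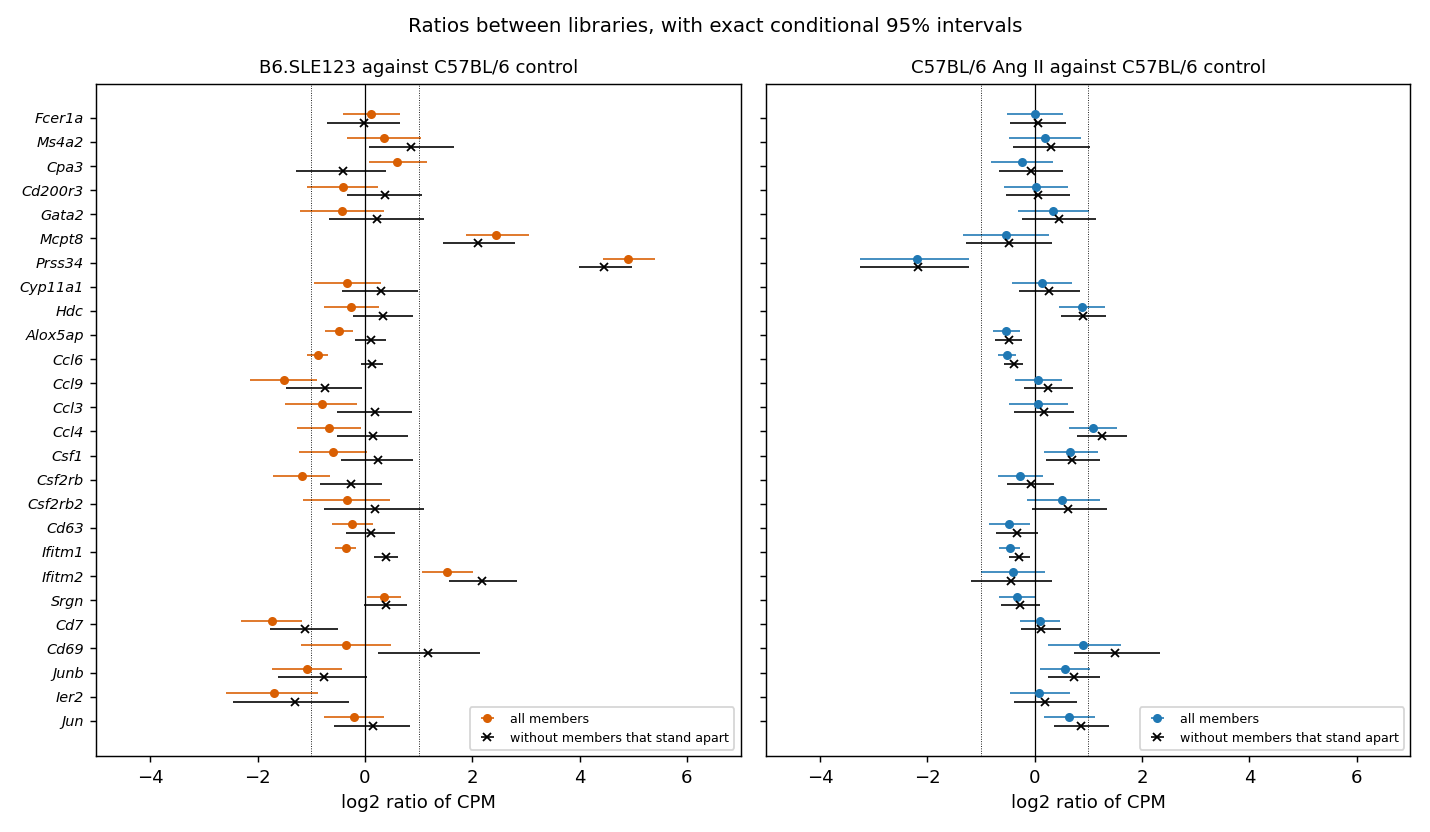
Log2 ratio of CPM (horizontal axis) of 26 genes in B6.SLE123 (left) and Ang II (right) against control members, with exact conditional 95% intervals, for all members (circles) and without the 10 that stood apart (crosses). Dotted lines mark 2-fold. Prss34 is at 4.90 on the left and -2.19 on the right, and on the left Ccl6 moves from -0.88 to 0.13.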

How the data were processed

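The 3 libraries were made with 10x Genomics 5′ chemistry, version 2. For every barcode the authors deposited unnormalized counts of UMIs, of genes and of hashtags alike, made with Cell Ranger 6.0.0 (file headers) on mm10 (submitters' processing notes). They listed 32285 genes and 6 hashtags. Counting error sets the precision, as each library held 44146350, 59043555 and 63516694 gene UMIs (control, Ang II, B6.SLE123) but its members 53679, 75250 and 63101. The members, the 26 gene lists and the tests were chosen with earlier results of these data known.

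Counts were summed over members with Python 3.11.15, numpy 2.4.6 and scipy 1.17.1. Shares carry Clopper-Pearson, CPM Poisson and ratios conditional exact 95% intervals. A count of 0 was set to a floor of 3 in ratios, as a bound, and no ratio was formed with 3 or fewer UMIs on both sides. Genes with 20 or more UMIs over both libraries were compared, and 2-fold was called. Text names the choosing genes, list genes, the 15 leading genes and the 8 highest and lowest ratios with 30 or more UMIs, leaving out immunoglobulin, T cell receptor, mitochondrial and sex-linked genes. A gene that this rule takes is not reported here. Gene positions are from GENCODE vM21 on GRCm38. Gates beside the B cell gate took barcodes without Cd79a by UMIs of Csf3r and other neutrophil, Csf1r and other monocyte, or Ncr1 and other NK genes. No doublet caller was run beyond the hashtag condition, so doublets within a hashtag stayed. The interval script was tested on simulated data. Other alternatives are in the closing section.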

Additional observations from a re-analysis of the deposited data

How the results depend on the processing

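No paired analysis was possible because each group was 1 library. The alternatives were other hashtag, gene, mitochondrial and choosing-gene limits, no Cd79a condition, each hashtag of each library left out, another denominator, the mean of each cell's CPM, median-ratio scaling, other UMI minimums, thinning, and, chosen after the data were seen, Cd79a and Cd79b both at 0, leaving out the 10 members that stood apart, leaving out the top member of each library for a gene, and leaving out the 4 B6.SLE123 members with most Prss34. Over barcodes without Cd79a the shares were 1.22%, 1.03% and 0.771%. Over the hashtags left out, the B6.SLE123 share lay between 0.0816% and 0.158%. The 80 genes higher in B6.SLE123 members became 146 with no Cd79a condition, 34 with limits read as UMIs, 594 with no minimum, 26 at 50 UMIs and 33 without the members that stood apart. The 92 lower ones became 186, 56, 686, 28 and 39 in the same order. Over hashtags left out these counts ran from 35 to 88 and from 51 to 125. For Ang II, the 73 higher genes became 44 with limits read as UMIs, 653 with no minimum and 11 at 50 UMIs, and ran from 41 to 86 over hashtags left out. The 39 lower ones became 64 with no hashtag condition, 61 with no Cd79a condition, 457 with no minimum and 7 at 50 UMIs. In B6.SLE123 members the cytokine and chemokine median of -0.67 became -1.33 with no Cd79a condition, 0.044 with limits read as UMIs and 0.15 without the members that stood apart, and ran from -0.92 to -0.020 over hashtags left out. The identity gene median of -0.59 became 0.24 without them. Without the 4 B6.SLE123 members with most Prss34, and with all control members kept, the B6.SLE123 ratio of Prss34 turned to -1.67, a fall fixed by that choice. H2-Aa turned to -0.44 with limits read as UMIs and to -0.92 without B6.SLE123 hashtag C0303, and ran from -0.92 to 4.17 over hashtags left out. For Ang II, Prss34 turned to 0.85 without control hashtag C0305 (-3.53 to 0.85 over hashtags left out), and S100a6 to 0.96 at 6 choosing UMIs, 0.93 without control hashtag C0301 (-2.44 to 0.93 over hashtags left out), 3.10 without the members that stood apart and 0.32 without the top members. The construction of the alternatives changes which members or genes enter, and no cause was tested beyond that. The numbers of members, 21 to 26, limit every comparison.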

Other observations

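Beyond the lists, Gata2 was also found outside members. Members held 41.0%, 72.2% and 36.4% of its UMIs in control, Ang II and B6.SLE123 kept barcodes, against 76.4%, 72.6% and 72.9% for Fcer1a. In 1 control and 2 B6.SLE123 barcodes without Cd79a, Gata2 alone of the 6 choosing genes had 4 or 5 UMIs, at depths from 6297 to 10082 UMIs, and a further B6.SLE123 barcode of 12799 UMIs had 10 UMIs of Mcpt8 alone with Prss34 at 0. Cma1, at 0 in every member, stood at 431, 258 and 457 CPM in the NK gate of the same libraries. Prg2, at 0 in control and Ang II members, had 226 and 418 UMIs in other kept barcodes of these libraries.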
